A study of Rattus norvegicus with 8 samples.

Results

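The Cyp3a cytochromes are the 5 rat genes Cyp3a23-3a1, Cyp3a2, Cyp3a9, Cyp3a18 and Cyp3a62. They are 5 of the 15154 genes with a symbol on the array, and were followed through every array probe whose transcript accession RefSeq assigns to one of these symbols. That gave 5 probes, 1 for each gene, of 30367 probes on the array, and all 5 were among the 16952 probes tested. The livers came from adult male Sprague-Dawley rats. One group ate a diet with PFOS (perfluorooctane sulfonate, a persistent surfactant) at 50 mg per kg of diet for 28 days, and the other ate control diet for the same 28 days, with 4 rats in each group. Each liver RNA was labelled with Cy5 and hybridized to its own two-colour Agilent array beside a Cy3-labelled universal rat reference RNA, the same on all 8 arrays.

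Cyp3a enzymes are heme-containing monooxygenases of the endoplasmic reticulum that oxidize steroids, bile acids and a large share of drugs. In liver they are among the most abundant P450 enzymes. Their genes are classic targets of the pregnane X receptor (PXR, gene Nr1i2) and of its relative the constitutive androstane receptor (CAR, gene Nr1i3), which bind paired copies of a short hexamer in the promoter as partners of the retinoid X receptor. In rat, Cyp3a23-3a1 is the form known for strong induction by synthetic steroids. Cyp3a2 and Cyp3a18 are known as male-predominant liver forms, Cyp3a9 as a form higher in female liver, and Cyp3a62 as a form of the intestinal tract.

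RefSeq places 8 Cyp3a loci on chromosome 12 of the rat assembly GRCr8, and 3 of them, Cyp3a73, Cyp3a2l1 and Cyp3a71-ps, had no matched probe and are not analysed here. Along the chromosome, Cyp3a18 comes first, Cyp3a2 and Cyp3a23-3a1 lie next to each other, and Cyp3a62 and Cyp3a9 follow after 110 other protein-coding genes. The promoters of the neighbours Cyp3a23-3a1 and Cyp3a2 are shown because they hold a paired hexamer found in no other window of RefSeq's rat promoter table. That of Cyp3a9 is shown as an example without a pair. The promoters of Cyp3a18 and Cyp3a62, not shown, hold none either. Each sequence is the RefSeq strand of the gene from 250 bases before to 50 bases after its start. It lies at chr12:14398754-14399053 (minus strand) for Cyp3a23-3a1, at chr12:14343808-14344107 (minus strand) for Cyp3a2 and at chr12:21960111-21960410 (minus strand) for Cyp3a9. Capitals mark a direct repeat of TGAACT with 3 bases between the copies and, in Cyp3a23-3a1, also an everted pair of AACT and AGGTCA with 6 bases between.
Cyp3a23-3a1: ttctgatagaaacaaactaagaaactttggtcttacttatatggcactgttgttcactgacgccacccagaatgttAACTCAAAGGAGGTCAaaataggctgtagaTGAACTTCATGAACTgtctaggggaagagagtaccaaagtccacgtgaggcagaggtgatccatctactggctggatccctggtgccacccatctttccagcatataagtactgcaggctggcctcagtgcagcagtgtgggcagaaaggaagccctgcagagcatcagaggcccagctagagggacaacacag
Cyp3a2: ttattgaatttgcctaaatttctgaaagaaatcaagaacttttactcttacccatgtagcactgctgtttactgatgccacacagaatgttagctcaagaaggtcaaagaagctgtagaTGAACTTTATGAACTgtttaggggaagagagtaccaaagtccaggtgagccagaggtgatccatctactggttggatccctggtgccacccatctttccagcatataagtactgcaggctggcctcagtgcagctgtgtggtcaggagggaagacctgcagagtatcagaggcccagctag
Cyp3a9: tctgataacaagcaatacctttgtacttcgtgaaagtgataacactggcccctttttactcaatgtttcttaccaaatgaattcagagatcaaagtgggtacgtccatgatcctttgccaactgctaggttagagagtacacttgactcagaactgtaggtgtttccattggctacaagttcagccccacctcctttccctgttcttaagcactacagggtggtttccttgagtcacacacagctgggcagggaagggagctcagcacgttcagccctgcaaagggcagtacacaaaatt

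The direct repeat, searched as TGAACTNNNTGAACT on both strands, was found in 2 of 33365 distinct promoter windows of the same length, or 0.00599%. Those 2 were the promoters of Cyp3a23-3a1, as TGAACTTCATGAACT from base -144 to -130 counted from the start, and of Cyp3a2, as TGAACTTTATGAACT from base -131 to -117. The everted pair, searched as AACTNNNNNNAGGTCA, was in 21 windows (0.0629%) and among the 5 genes in Cyp3a23-3a1 alone, as AACTCAAAGGAGGTCA from base -174 to -159. The single hexamers TGAACT and AGGTCA are common. The everted pair was searched with AACT, a shortened TGAACT, so the share of TGAACT is not that of its first part. TGAACT was in 14.5% of all windows and in 5 of 5 Cyp3a promoters, and AGGTCA was in 16.2% of all windows and in 2 of 5. The Cyp3a23-3a1 and Cyp3a2 promoters were 80.6% identical over their alignment and those of Cyp3a9 and Cyp3a62 were 68.6% identical, while the other 8 pairs ran from 53.5% to 58.7%. These motifs were chosen with the promoters in view, and a match of letters is a description and not a binding site.

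Liver RNA of PFOS rats gave more signal on the Cyp3a probes than that of control rats. In the log2 ratio of liver Cy5 over reference Cy3, 3 of the 5 probes rose past the test (Cyp3a23-3a1, Cyp3a2 and Cyp3a62), and 0 fell. With the Cy5 channel alone, 4 of 5 rose, Cyp3a9 being the additional one. Cyp3a18 passed in neither measure. A probe counted as called when limma's adjusted p, by the Benjamini-Hochberg method over all 16952 probes, was under 0.05. Over all probes, 1.74% were called higher in the ratio and 3.74% in either direction, and 2.38% were called higher in Cy5. On 4 of 5 probes every PFOS array lay above every control array in the ratio, against 5.81% of all probes, and the same 4 did so in Cy5, against 6.37%. The median change of the 5 probes was 0.99 in the ratio and 1.69 in Cy5 on the log2 scale, beside -0.012 and -0.0016 over all probes.

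All 5 probes were well above background in Cy5 on all 8 arrays, and none of their spots was saturated. Over whole arrays, 50.4% to 59.1% of probes were well above background in Cy5 and 73.2% to 76.5% in Cy3. The log2 ratios of all tested probes correlated at 0.972 to 0.981 between PFOS arrays, 0.98 to 0.983 between control arrays and 0.958 to 0.974 across the groups. All 6 hepatocyte markers followed (Alb, Ttr, Tf, Apoa1, Serpina1 and Cps1) were well above background in Cy5 on every array, and none was called in the ratio. Their mean log2 Cy5 signal was 16.33 to 16.42 in PFOS livers and 16.62 to 16.76 in control livers, a difference that lay mostly in Apoa1, which was called lower in Cy5 at -1.77. The other markers differed in Cy5 by -0.26 (Serpina1) to 0.07 (Alb), none called. The part of Apoa1's change in the Cyp3a values was not tested. In whole liver, a change in the share of a cell type and a change in RNA per cell cannot be told apart. Values below are signal units of the scanner, averaged over the spots of a probe, and log2 ratios after background correction and normalization. Each array is a separate rat, per the labels. Whether a probe also bound transcripts of a neighbouring Cyp3a gene was not tested, so each value is uncertain as to which close relative it counts.

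Cyp3a23-3a1, the inducible form, was read by a probe with 2 spots. Its Cy5 signal was 66323, 42274, 31900 and 23498 units in PFOS livers 1 to 4, against 12506, 8932, 11912 and 7440 units in control livers 1 to 4. The lowest PFOS liver lay well above the highest control liver before any normalization. After quantile normalization the log2 Cy5 signal averaged 15.23 ± 0.320 in PFOS livers and 13.22 ± 0.337 in control livers (SD, n = 4 each). The change was 2.01 (SE 0.19, 95% interval 1.57 to 2.44), a 4.02-fold rise, with a limma adjusted p of 0.000607. It ranked number 51 by p among all tested probes.

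The same probe was dim in the reference channel, though well above background on all 8 arrays. Its Cy3 signal was 94.2, 79.5, 87 and 68 units on the PFOS arrays, against 48.8, 100.8, 51.2 and 54 units on the control arrays, where the median background of an array was 25.5 to 30 units. The log2 ratio was 10.47, 9.69, 10.35 and 10.03 in PFOS livers, against 8.88, 7.86, 9.11 and 8.85 in control livers. Control liver 2 was the lowest of all, and the groups did not overlap. The ratio rose by 1.46 (SE 0.27, 95% interval 0.85 to 2.07), or 2.75-fold, with a limma adjusted p of 0.0207. On control array 2 the 2 spots disagreed in Cy3, at 42 and 159.5 units. With the brighter spot left out, a choice made after seeing the data, control liver 2 had a log2 ratio of 8.33 and the change was 1.34 (SE 0.204, adjusted p = 0.0078). The ratio's call was lost without PFOS 1 (1.35, adjusted p = 0.0569) and without PFOS 3 (1.39, adjusted p = 0.0609). It was also lost with other background handling, at 0.51 with the scanner software's processed signals (adjusted p = 0.391) and 0.86 with a background offset of 0 (adjusted p = 0.242), while the Cy5 call held in all 6 other settings and all 8 fits with 1 array left out, at 1.85 to 2.13.

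Cyp3a2, the male-predominant neighbour of Cyp3a23-3a1, had Cy5 signals of 205123, 193892, 145004 and 126227 units in PFOS livers. In control livers they were 60332, 27810, 84537 and 30355 units. All PFOS livers lay above all control livers, and relative to their mean the control livers spread more widely, with control livers 2 and 4 lowest. The log2 Cy5 signal averaged 17.40 ± 0.133 in PFOS livers and 15.43 ± 0.809 in control livers (SD, n = 4 each). It rose by 1.97 (SE 0.33, 95% interval 1.22 to 2.71), or 3.91-fold, with a limma adjusted p of 0.0108, and this call held in all 6 other settings and all 8 fits with 1 array left out, at 1.63 to 2.28.

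In the reference channel the Cyp3a2 probe gave 134, 147.5, 180.8 and 171 units on PFOS arrays, against 86, 56.8, 134 and 79.5 units on control arrays. PFOS array 1 and control array 3 met at 134 units, and all other PFOS arrays were above all control arrays. The log2 ratio was 11.69, 11.26, 11.61 and 11.34 in PFOS livers, against 10.67, 9.99, 10.83 and 10.47 in control livers. Those groups did not overlap, and control liver 2 was again the lowest. The ratio rose by 0.99 (SE 0.18, 95% interval 0.58 to 1.39), or 1.98-fold, with a limma adjusted p of 0.0191. The call was lost without PFOS 1 (0.91, adjusted p = 0.054) and without PFOS 3 (0.94, adjusted p = 0.0577). It was also lost with processed signals (0.27, adjusted p = 0.232) and with an offset of 0 (0.45, adjusted p = 0.115).

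Cyp3a9, a form known in rat as higher in female liver, had Cy5 signals of 15572, 5354, 5051 and 4347 units in PFOS livers. Control livers gave 3745, 1794, 3398 and 971 units. PFOS liver 1 stood far above the other 3, and the lowest PFOS liver was above the highest control liver by less than the spread within either group. The log2 Cy5 signal averaged 12.72 ± 0.606 in PFOS livers and 11.02 ± 0.747 in control livers (SD, n = 4 each). It rose by 1.69 (SE 0.39, 95% interval 0.82 to 2.57), or 3.24-fold, with a limma adjusted p of 0.0416. Leaving out control 1, 2 or 4 or PFOS 1, 3 or 4 ended this call, with changes of 1.42 to 1.89. With all arrays kept it was also lost in 4 of 6 other settings, at 1.64 to 1.70 (adjusted p = 0.0607 with the processed signal, 0.112 with median centring, 0.0635 with no filter on dim probes and 0.0613 with slide row as a block).

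The Cyp3a9 probe was bright in the reference channel too. Cy3 was 3776, 4210.8, 3705.5 and 3821.2 units on PFOS arrays and 3945.8, 4291, 3959 and 4292 units on control arrays. The log2 ratio was 3.38, 1.85, 2.63 and 2.28 in PFOS livers, against 1.48, 0.28, 1.58 and 0.16 in control livers. Control livers 2 and 4 were lowest, and the groups did not overlap. The mean ratio was 1.66 higher in PFOS livers (SE 0.40, 95% interval 0.75 to 2.57, or 3.16-fold), and with a limma adjusted p of 0.0582 it missed the threshold. Over 16 other settings the difference kept between 1.56 and 1.78, and 2 of them made it a call, median centring (adjusted p = 0.0469) and slide column as a block (adjusted p = 0.0128).

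Cyp3a18, a male-predominant form, was read by a probe with 10 spots, of which 4 spot values over all arrays were left out as outliers. Its Cy5 signal was 25418, 13053, 17935 and 14914 units in PFOS livers, against 17740, 2744, 13970 and 6251 units in control livers. The groups overlapped, and control liver 2 was lowest by a wide margin. The log2 Cy5 signal averaged 14.10 ± 0.497 in PFOS livers and 12.91 ± 1.31 in control livers (SD, n = 4 each), a difference of 1.19 (SE 0.56, 95% interval -0.07 to 2.45, limma adjusted p = 0.272).

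Cy3 on the Cyp3a18 probe was 156.1, 121.8, 179.8 and 151 units on PFOS arrays, against 139.6, 58, 144.9 and 101.3 units on control arrays. Its log2 ratio was 8.62, 7.75, 8.74 and 8.58 in PFOS livers, against 8.37, 6.63, 8.27 and 7.98 in control livers. PFOS liver 2 lay below 3 of the control livers. The mean ratio differed by 0.61 (SE 0.38, 95% interval -0.24 to 1.46, limma adjusted p = 0.408). That interval includes 0 and also the changes of Cyp3a2 (0.99) and Cyp3a62 (0.94). The difference was 0.21 to 0.83 with 1 array left out, and it passed in none of the 16 other settings.

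Cyp3a62, the intestinal form, had Cy5 signals of 1437, 1544, 672 and 579 units in PFOS livers, against 631, 571, 541 and 414 units in control livers. PFOS livers 1 and 2 were well above PFOS livers 3 and 4, and PFOS liver 4 lay below control liver 1 before normalization. After normalization the log2 Cy5 signal averaged 9.96 ± 0.319 in PFOS livers and 8.99 ± 0.120 in control livers (SD, n = 4 each), and the groups did not overlap. It rose by 0.97 (SE 0.15, 95% interval 0.64 to 1.31), or 1.97-fold, with a limma adjusted p of 0.00622.

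The Cyp3a62 probe was well above background in Cy3 on 0 of 4 PFOS arrays and 1 of 4 control arrays, at 40.5 to 46.2 units and 38 to 44.5 units. Its log2 ratio was 5.87, 5.41, 5.14 and 4.76 in PFOS livers, against 4.47, 4.31, 4.43 and 4.20 in control livers. The groups did not overlap, and control livers were tightly grouped. The ratio rose by 0.94 (SE 0.20, 95% interval 0.48 to 1.40), or 1.92-fold, with a limma adjusted p of 0.0393. That call was lost in 6 of the 8 fits that left out 1 array (without PFOS 2 or 3 or any 1 control array) and in 8 of 16 other settings, with changes of 0.63 to 1.26. The Cy5 call held in every fit that left out 1 array, at 0.85 to 1.11, and was lost under median centring alone (0.91, adjusted p = 0.0893).

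**Figure D1:**
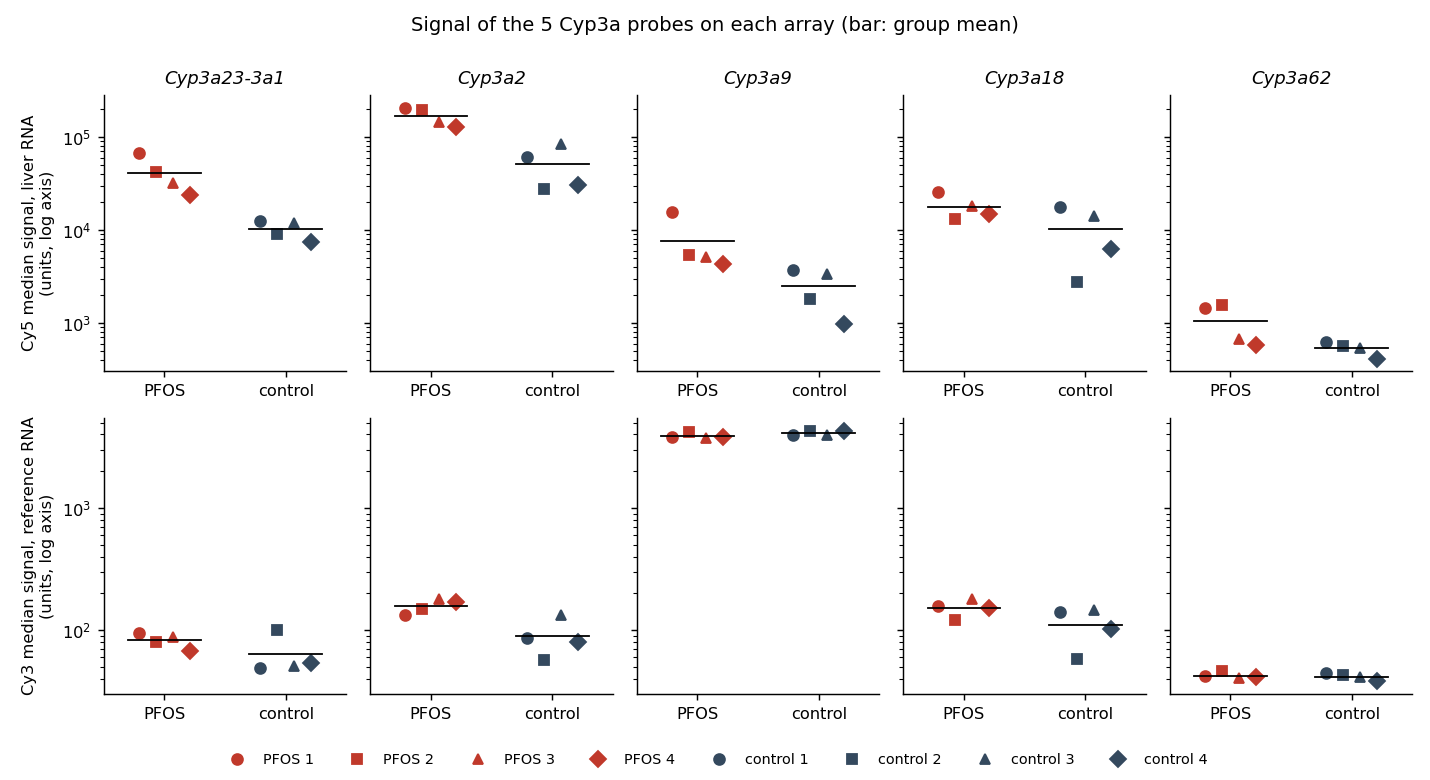
Median signal of the 5 Cyp3a probes on each of 8 arrays, in scanner units on log axes, for liver RNA (Cy5, top) and reference RNA (Cy3, bottom). Points are arrays, numbered within a group without any pairing, and bars are group means. In Cy5 the PFOS points of Cyp3a23-3a1, Cyp3a2 and Cyp3a9 lie above all control points, and in Cy3 the Cyp3a9 probe lies between 3705.5 and 4292 units while the other 4 lie between 38 and 180.8 units.

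The reference RNA was the same on every array, so its channel gives a background for these changes. None of the 5 probes was called in Cy3, where limma called 13 of all tested probes in either direction (0.0767%), and 2 of the 5 had an unadjusted p under 0.05. Those were Cyp3a2, with a Cy3 difference of 0.71 (SE 0.18, unadjusted p = 0.00369, adjusted p = 0.845), and Cyp3a23-3a1, with 0.33 (SE 0.12, unadjusted p = 0.0232). Cyp3a18 differed by 0.44 (SE 0.20), Cyp3a62 by 0.04 (SE 0.04) and Cyp3a9 by -0.04 (SE 0.04). Since the ratio divides by Cy3, a higher Cy3 signal on PFOS arrays lowers the ratio change by construction. The ratio was normalized within arrays and the single channels between arrays, so a ratio change is not the Cy5 change minus the Cy3 change. The part of Cy3 and that of the normalization in the gaps below were not tested. The change was 1.46 in the ratio and 2.01 in Cy5 for Cyp3a23-3a1, 0.99 and 1.97 for Cyp3a2, and 0.61 and 1.19 for Cyp3a18. For Cyp3a9 the same pair was 1.66 and 1.69, and for Cyp3a62 it was 0.94 and 0.97. What moved the dim Cy3 signals was not tested.

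**Figure D2:**
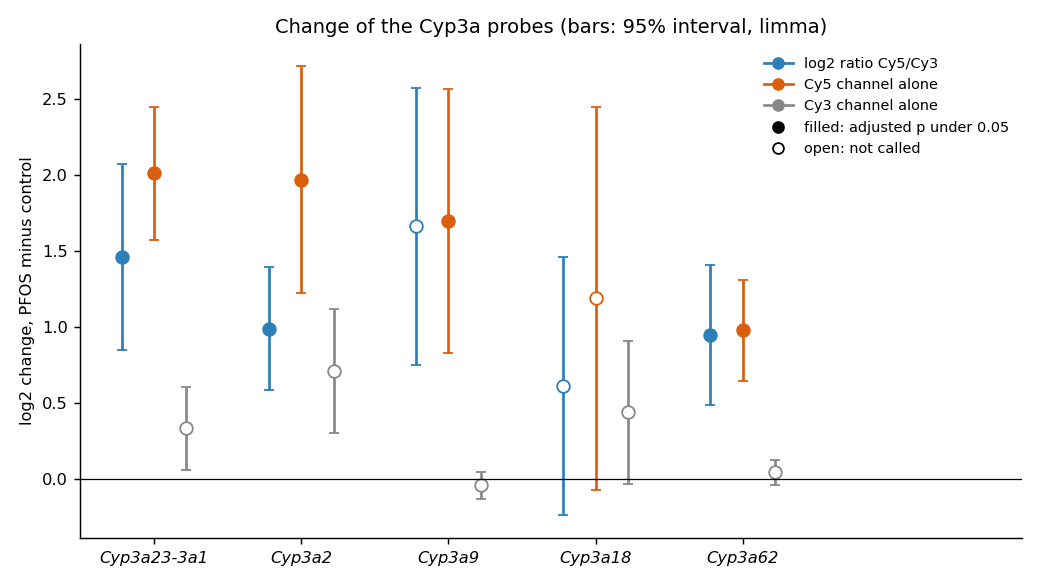
Log2 change, PFOS minus control, of each Cyp3a probe in the log2 ratio, the Cy5 channel alone and the Cy3 channel alone (vertical axis), with bars for limma's 95% interval. Filled points passed an adjusted p of 0.05. Ratio and Cy5 values lie side by side for Cyp3a9 (1.66 and 1.69) and Cyp3a62 (0.94 and 0.97), and apart for Cyp3a2 (0.99 and 1.97).

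On the 4 probes that were dim in Cy3, the size of the ratio change also varied with the settings. Over 16 other settings the ratio change ran from 0.51 to 1.71 for Cyp3a23-3a1, 0.27 to 1.17 for Cyp3a2, 0.25 to 0.71 for Cyp3a18 and 0.63 to 1.26 for Cyp3a62. For Cyp3a9, the probe bright in both channels, it ran from 1.56 to 1.78. These settings include slide row 1 or row 2 alone, with fewer rats, which gave both ends for Cyp3a62 and the highest value for Cyp3a23-3a1. The Cy5 settings hold no such fits, so the ranges of the 2 measures are not like for like. In Cy5 alone, over 6 other settings, it ran from 1.95 to 2.01 for Cyp3a23-3a1, 1.81 to 1.97 for Cyp3a2, 1.64 to 1.70 for Cyp3a9, 1.15 to 1.19 for Cyp3a18 and 0.91 to 1.11 for Cyp3a62. All 190 values of the 5 probes under other settings or with 1 array left out, over both measures, were positive. Settings that alter only the probes tested, the variance model or a slide block return the same change as reported. Those could not turn its sign or widen these ranges, so the count holds many repeats of 1 value.

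**Figure D3:**
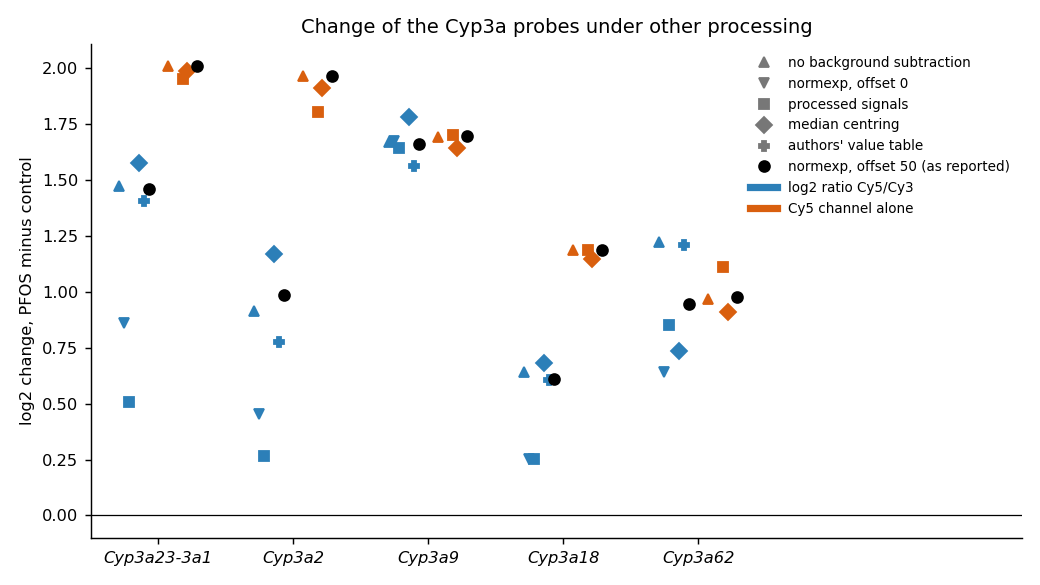
Log2 change, PFOS minus control, of each Cyp3a probe under other background corrections and normalizations, for the log2 ratio (blue) and Cy5 alone (orange), with black circles for the reported setting. Blue symbols spread most for Cyp3a23-3a1 and Cyp3a2, and stay within 1.56 to 1.78 for Cyp3a9.

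The arrays sat on 1 slide in 2 rows, with PFOS 1 and 2 and control 1 and 2 in row 1, and PFOS 3 and 4 and control 3 and 4 in row 2. Within row 1 the ratio change was 1.71 for Cyp3a23-3a1, 1.15 for Cyp3a2, 1.74 for Cyp3a9, 0.68 for Cyp3a18 and 1.26 for Cyp3a62. Within row 2 it was 1.21 for Cyp3a23-3a1, 0.82 for Cyp3a2, 1.58 for Cyp3a9, 0.53 for Cyp3a18 and 0.63 for Cyp3a62. Every value was positive, and for each gene that of row 1 was the larger. With 2 arrays a group limma called 0 of the 5 in either row (adjusted p from 0.0731 upward), and an unadjusted p under 0.05 was met by 4 of them in row 1 and 5 in row 2. With row as a block the 3 ratio calls stayed, while in Cy5 the call of Cyp3a9 was lost (adjusted p = 0.0613). Each of the 4 slide columns held 1 PFOS and 1 control array. With column as a block the ratio call of Cyp3a62 was lost (adjusted p = 0.0746), that of Cyp3a9 was gained (1.66, SE 0.149, adjusted p = 0.0128) and those of Cyp3a23-3a1 and Cyp3a2 stayed, and the 4 Cy5 calls stayed.

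The 5 genes were then compared with each other, as 10 pairs of log2 ratios tested by exact permutation over the 70 ways to split 8 arrays, where the smallest p possible is 0.0286. The ratio change was larger for Cyp3a23-3a1 than for Cyp3a2 by 0.47 and than for Cyp3a18 by 0.85, and larger for Cyp3a9 than for Cyp3a18 by 1.05. Each of these 3 had the smallest p possible, two-sided, and an adjusted p of 0.0953 over the 10 pairs. In Cy5 alone the same 3 differences were 0.04, 0.82 and 0.51, in that order (exact permutation p = 0.886, 0.2 and 0.343). There 1 other pair reached the smallest p possible, Cyp3a23-3a1 over Cyp3a62 by 1.03 (adjusted p = 0.286). A pair at the smallest p possible could pass after adjustment over the 10 pairs only if most pairs reached it at once. This test could therefore hardly call a pair. It does not decide whether the genes differ in their response or respond alike.

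Rats of the same group also differed among themselves, and several Cyp3a genes did so together. After subtraction of each group's mean, the log2 ratios of Cyp3a23-3a1 and Cyp3a2 correlated over the 8 arrays at r = 0.97, those of Cyp3a23-3a1 and Cyp3a18 at 0.95, and those of Cyp3a2 and Cyp3a18 at 0.90. All 10 pairs were positive, with a median of 0.70, and Cyp3a62 was the loosest, at 0.02 with Cyp3a18 and 0.25 with Cyp3a23-3a1. In Cy5 alone the same pairs ran from 0.07 to 0.85. These are descriptions over 8 points that share arrays, reference RNA and normalization. Control liver 2 lay below its group mean by 1.19 for Cyp3a18, 0.81 for Cyp3a23-3a1, 0.59 for Cyp3a9 and 0.50 for Cyp3a2, but by 0.05 for Cyp3a62. Without the discordant Cy3 spot on that array, Cyp3a23-3a1 lay at -0.46 from its group mean there, beside -0.48 in Cy5. Its correlation was then 0.93 with Cyp3a2 and 0.88 with Cyp3a18. Among PFOS livers, number 1 had the highest log2 ratio for all but Cyp3a18, and number 2 the lowest for all but Cyp3a62. The order differed in Cy5 alone. There number 4 was lowest for Cyp3a23-3a1 (-0.36 from the group mean), Cyp3a2 (-0.19) and Cyp3a62 (-0.39), and number 1 was highest only for Cyp3a23-3a1 and Cyp3a9.

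**Figure D4:**
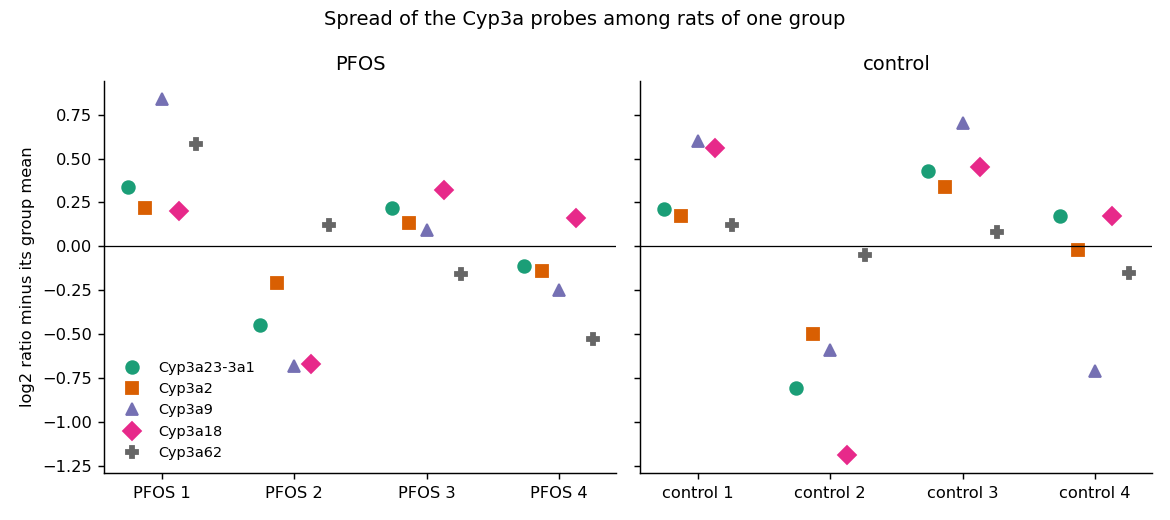
Log2 ratio of each Cyp3a probe on each array minus the mean of its group, for PFOS (left) and control (right). Symbols are genes. On control array 2 the Cyp3a18 symbol lies at -1.19 and that of Cyp3a62 at -0.05.

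Over the same 8 group-centred values, 9618 genes were ranked by their correlation with Cyp3a23-3a1. The 5 nearest were Ust5r (0.973), Cyp3a2 (0.968), Slc13a3 (0.965), Bex2 (0.965) and Ctc1 (0.964). Whether the best of 9618 genes would reach such values by chance over 8 arrays was not tested, so the ranks are descriptions only. These ranks use both spots, and without the discordant spot the 5 correlations were 0.88 to 0.93. Cyp3a18 came at rank 8, Cyp3a9 at rank 228 and Cyp3a62 at rank 2649. Of the 5 nearest, Cyp3a2 was the only one called with PFOS. Slc13a3, a dicarboxylate transporter, differed by 0.37 (SE 0.30), Ust5r by 0.11 (SE 0.23), Ctc1 by 0.08 (SE 0.13) and Bex2 by -0.20 (SE 0.10).

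Genes that act upstream of the Cyp3a cytochromes were not called. Of 16 regulators listed, 13 were tested and 0 passed in either direction in limma, in the ratio or in Cy5. Over all probes 3.74% were called in the ratio, so a list of 13 would be apt to hold few calls or none. In the ratio 4 of 13 had an unadjusted p under 0.05, and the median change was -0.07. Nr1i2, which encodes PXR, had a log2 ratio of 5.36 ± 0.12 in PFOS livers and 5.43 ± 0.06 in control livers (SD, n = 4 each), a difference of -0.07 (SE 0.08). Nr1i3, which encodes CAR, was at 5.67 ± 0.52 in PFOS livers and 4.27 ± 0.99 in control livers. Its difference of 1.40 (SE 0.45) had a limma adjusted p of 0.136, and 0.0805 in Cy5.

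The supply of heme and electrons to P450 enzymes was called higher at 3 of its 10 genes, with 0 lower, beside 1.74% of all probes called higher and 3.74% in either direction. Alas1, the rate-limiting enzyme of liver heme synthesis, had a log2 ratio of 4.40 ± 0.28 in PFOS livers and 2.84 ± 0.40 in control livers, a rise of 1.56 (SE 0.21, limma adjusted p = 0.00447). Por, the reductase that passes electrons from NADPH to microsomal P450 enzymes, rose by 1.11 (SE 0.21, adjusted p = 0.0207). Cyb5a, the cytochrome that can donate an electron in the same cycle, rose by 0.74 (SE 0.15, adjusted p = 0.0261). The other 7 genes were not called, and the median of the list was 0.21. They include Alad, Cpox and Fech of later heme synthesis, named after their values were seen.

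Of 20 other genes known for induction through PXR or CAR, 16 were tested, of which 7 rose and 1 fell. Over all probes 1.74% were called higher in the ratio and 3.74% in either direction. Cyp2b2, the phenobarbital-inducible P450 of rat liver, rose by 3.62 (SE 0.09, adjusted p = 2.12e-07). Ces2c, a carboxylesterase, rose by 2.88 (SE 0.21), Aldh1a1, a retinaldehyde dehydrogenase, by 1.82 (SE 0.14) and Gadd45b, a stress-response gene, by 1.05 (SE 0.11). Sult2a1, a steroid and bile acid sulfotransferase, fell by 1.06 on the log2 scale (SE 0.19, adjusted p = 0.0181), and was named after its value was seen. The median of the 16 was 0.355, against 0.99 for the 5 Cyp3a probes. In the ratio the list is mixed, since 8 genes were not called, among them the transporter Abcc2 at 0.00 (SE 0.11), also named after its value was seen. In Cy5 alone, where 2.38% of all probes were called higher, 8 genes rose and 1 fell. Cyp2c6v1, not called in the ratio (0.18), rose there by 1.39 (limma adjusted p = 0.00102), and was named after its value was seen. Some Cy5 changes were larger than in the ratio (Cyp2b2 5.75, Sult2a1 -2.13) and others smaller (Ces2c 2.60).

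Sex-biased and zonal liver genes were followed because Cyp3a genes share such patterns in rat liver. None of 7 male-biased genes was called in the ratio, with 1 at an unadjusted p under 0.05 and a median of 0.12, and in Cy5 Hsd3b5, named after its value was seen, was called higher (0.52, adjusted p = 0.0418). Of 5 female-biased genes, Srd5a1, a steroid reductase, fell by 0.81 on the log2 scale (SE 0.15, adjusted p = 0.0219) and 4 were not called, with a list median of -1.25. In limma 3 of the 5 had an unadjusted p under 0.05. The 4 not called, named after their values were seen, were Cyp2c12 at -2.14 (SE 0.57, adjusted p = 0.0805), A1bg at -2.07 (SE 0.62, adjusted p = 0.11), Prlr at -1.25 (SE 0.61) and Cyp2a1 at 0.15 (SE 0.11). The Cyp2c12 probe had a log2 ratio of 8.61 ± 0.61 in the male control livers (SD, n = 4). Whether it read Cyp2c12 alone was not tested. Of 9 tested pericentral genes, the ammonium transporter Rhbg rose by 1.90 (SE 0.25, adjusted p = 0.00447), with 5 of 9 at an unadjusted p under 0.05 and a median of -0.29. Of 9 periportal genes, Aldh1b1, a mitochondrial aldehyde dehydrogenase, fell by 0.94 on the log2 scale (SE 0.18, adjusted p = 0.022). The list had 3 of 9 at an unadjusted p under 0.05 and a median of -0.26. Over all probes 3.74% were called in either direction in the ratio, and 2.38% were called higher in Cy5. Each of these short lists would thus be apt to hold few calls or none.

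Markers of other cells were set beside the Cyp3a values. In limma's ratio fit, 0 of 6 Kupffer cell, 0 of 3 tested endothelial, 0 of 4 tested stellate and 0 of 4 tested cholangiocyte markers were called, with 1, 2, 1 and 1 of them at an unadjusted p under 0.05. Over all probes 3.74% were called, so lists this short would be apt to hold no call. Of 4 tested small intestine markers, Fabp2, a fatty acid binding protein, fell by 1.17 on the log2 scale (SE 0.25, adjusted p = 0.0393). The mean log2 Cy5 signal of these 4 was 7.55 to 7.69 in PFOS livers and 7.74 to 7.97 in control livers, and Fabp2 had the only sizeable change among them. Lct differed by 0.09, Alpi by -0.02 and Cdx2 by -0.06 in the ratio, none called. Their part in the Cyp3a values was not tested.

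**Figure D5:**
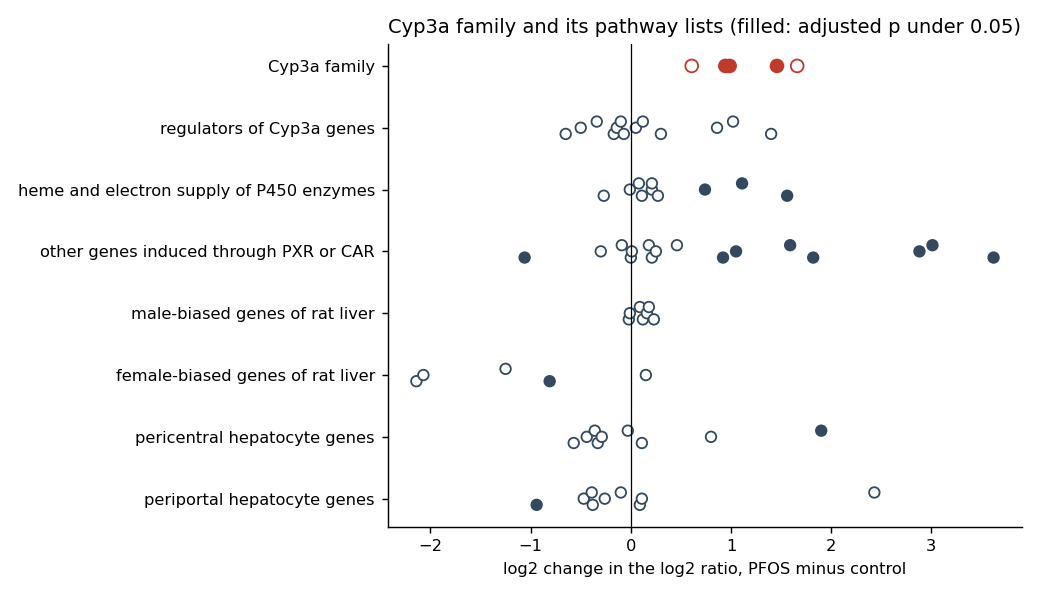
Log2 change in the ratio, PFOS minus control, of the 5 Cyp3a probes and of the tested genes of 7 lists (rows), with filled points for an adjusted p under 0.05. All Cyp3a points lie right of 0, at 0.61 to 1.66, while the regulators lie on both sides and have no filled point.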

How the data were processed

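Liver RNA of 4 PFOS rats and 4 control rats was measured on two-colour Agilent arrays of 1 slide, each with 62976 spots. Groups came from the sample labels, and replicate numbers follow accession order and pair nothing. Per the file headers, the deposited scanner output gives each spot's intensity in both channels and was made by version 10.7.3.1 of Agilent's Feature Extraction software. A value table from the authors is on the log2 scale. Its columns correlated at 0.995 to 0.997 with the log2 Cy5/Cy3 ratio without background subtraction, and how it was centred is unknown.

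Median signals were background-corrected here (normexp, offset 50) and loess-normalized within arrays with control spots at weight 0 (limma 3.58.1 in R 4.3.3). Outlier spots were dropped and the spots of a probe averaged. A probe was tested if its Cy5 signal was well above background on 4 or more of the 8 arrays, with lmFit and eBayes, two-sided, with Benjamini-Hochberg adjustment over all 16952. Single channels were quantile-normalized between arrays. Counts of genes at an unadjusted p under 0.05 are given without the share of all probes at that p, and are descriptions only. A list gene was read by its brightest probe in Cy5. The steps were tested on simulated data with known changes. The number of arrays limits the precision.

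The 5 genes, the lists and the tests were chosen with earlier results of these data known. All 5 Cyp3a probes are named. List genes are named where called in the ratio, at most 4 of smallest p a list, besides Nr1i2, Nr1i3, Por and Alas1, and other list genes were named after their values were seen. Promoters were those of RefSeq (GRCr8), aligned with Biopython 1.88. Probe sequences were not used here.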

Additional observations from a re-analysis of the deposited data

Results flagged for a closer look

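In each group of 4 arrays, the gap between the highest or lowest array and its nearest neighbour was divided by the range of the group and set against Dixon's critical value at 95%. Over 30 such groups (5 probes, 3 measures, 2 diets) 3 stood out, where chance marks about 1 in 20. PFOS liver 2 had a Cyp3a18 log2 ratio of 7.75, with the other PFOS livers at 8.58 to 8.74. Control array 2 had a log2 Cy3 signal of 6.97 for Cyp3a23-3a1, with the others at 6.48 to 6.49, and this is the array on which the 2 spots of that probe differed, at 159.5 and 42 units. PFOS array 2 had a log2 Cy3 signal of 6.36 for Cyp3a62, with the others at 6.24 to 6.25.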

How the results depend on the processing

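Of 190 values of the 5 probes under other settings or with 1 array left out, 150 kept their side of the threshold, 38 lost a call, 2 gained one and 0 changed sign. The number of Cyp3a probes called in the ratio was 3 as reported, 1 from the authors' value table, and 0 in limma with an offset of 0, with processed signals, and within slide row 1 or row 2 alone. Those settings had 3, 3, 4 and 5 Cyp3a probes at an unadjusted p under 0.05. The count was 0 to 3 with 1 array left out (1 without PFOS 1, and 0 without PFOS 3, where 4 had an unadjusted p under 0.05). In the authors' deposited table Cyp3a23-3a1 changed by 1.41 (adjusted p = 0.0523). In Cy5 alone 4 were called, 2 with median centring and 3 to 4 with 1 array left out. Over all probes the ratio gave 634 calls, with 261 under median centring, 293 with slide column as a block, 108 in row 1 alone, 36 in row 2 alone and 369 to 551 with 1 array left out. Cy5 alone gave 785, with 260 under median centring, 497 with slide column as a block and 455 to 715 with 1 array left out. Aquantile scaling between arrays leaves the ratios as they are by construction. Other choices of probes tested, the variance model with trend and slide row or column as a block also leave each change as it is. They alter only its SE or adjusted p, so they could not change its sign. No paired analysis was possible because replicate numbers only follow accession order, apart from slide column as a block, with 1 PFOS and 1 control array in each column. Precision is limited by 4 rats a group and by low Cy3 signals on 4 of 5 probes (38 to 180.8 units, with Cyp3a62 mostly not well above background). The ratio changes of these 4 moved more over 16 settings than their Cy5 changes over 6. The 16 include slide row 1 or row 2 alone, which the 6 do not, so the 2 spreads are not like for like.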
